A study of Polypedilum vanderplanki with 33 samples.

Results

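A single gene, PvG031127, met the criteria for genes that rose late in drying and were lost soon after rewetting, of 28415 genes counted in whole larvae of Polypedilum vanderplanki. The criteria used CPM, a gene's counts scaled by the library's total, and a level was the log2 of the mean CPM plus 1. PvG031127 was chosen by its CPM in 4 sets of libraries: larvae before drying (0 h of dehydration), early drying (8 to 24 h of dehydration), late drying (40 and 48 h of dehydration and 0 h of rehydration), and early rewetting (3 and 6 h of rehydration). A gene had to stay within 0.75 of its 0 h level in early drying, lie at least 2 above it in late drying, and differ from its late level by -1.5 or less in early rewetting. Genes on 5 scaffolds, 339 in all, were set aside. Of the other genes, 84 met the criteria for early and late drying, and only PvG031127 also met the last one, so it is described here as 1 gene and not as a group.

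Polypedilum vanderplanki is the sleeping chironomid, a midge whose larvae survive almost complete loss of water, a state called anhydrobiosis. In this insect drying is known to bring the sugar trehalose, late embryogenesis abundant proteins, heat shock proteins and antioxidant enzymes, and the title of the series names the heat shock regulatory system. The deposited IDs come without names and 0 of them match the gene table of assembly Pv_5.2, so no protein or function can be given for PvG031127.

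The series held 33 libraries of polyadenylated RNA from larvae of inbred lines, which were dried for 0, 1, 8, 12, 16, 24, 32, 36, 40 or 48 h and then rewetted for 0, 1, 3, 6, 12, 24 or 48 h. No time had more than 3 libraries, 32 and 36 h of dehydration and 6, 12, 24 and 48 h of rehydration had 1 each, and the labels name no treatment other than drying and rewetting. Labels named 2 batches, with 22 and 11 libraries. Total counts lay between 15015674 and 34179203 per library. Replicate 2 at 1 h of rehydration stood apart, with 8035 genes detected against at least 14232 in the others, and was left out of the tests. A library titled 40 h carried a duration of 48 h, and both times belong to late drying. Whether replicates are separate cultures or pools of larvae is not stated, and p-values then cover only the spread between libraries, which may be technical.

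PvG031127 lay on the plus strand of scaffold 77887, from 725921 to 734269 in the deposited annotation, whose build is not given in the sources used here. Its span of 8349 bases was covered by 2 transcript models, one with a single exon over the whole span and one with an intron of 83 bases (729722 to 729804). The whole model fell inside an intron of a gene on the other strand, PvG031199 (scaffold 77887, 718756 to 754543). That intron ran from 724860 to 753010, and 1061 bases separated PvG031127 from the nearer exon. The library kit does not mark the strand of a transcript, and the use of strand in counting was not given. Reads from PvG031127 and reads from unspliced RNA of PvG031199 can therefore not be told apart, which holds for every value given for PvG031127.

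Before and early in drying PvG031127 was close to absent. The 0 h libraries held 0 and 12 counts, and the 12 libraries from 8 to 24 h of dehydration held between 0 and 15, with a median of 2.5 and no count in 3 of them. In CPM these were 0 and 0.421 at 0 h and between 0 and 0.979 in early drying, so the groups overlapped. A library without a count allows a level of up to 0.126 CPM at 0 h, taking 3 counts of its total as the limit, and such limits and all intervals cover counting error only. In late drying every library held at least 174 counts. The 40 h libraries had 6.86, 8.55 and 9.77 CPM, the 48 h libraries 7.34 and 12.31 CPM, and the libraries at 0 h of rehydration 7.74 and 9.34 CPM. All 7 lay above all libraries of 0 to 24 h, which the choice of the gene required in part. By 3 h of rehydration the level was 2.33 and 1.34 CPM, and at 6 h it was 1.07 CPM. On the log2 scale of the criteria the level was 0.28 at 0 h, 0.30 in early drying, 3.30 in late drying and 1.37 in early rewetting, a fall by 1.93 from the late level. These values chose the gene, and the differences between 0 h, early drying, late drying and early rewetting were not tested.

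**Figure D1:**
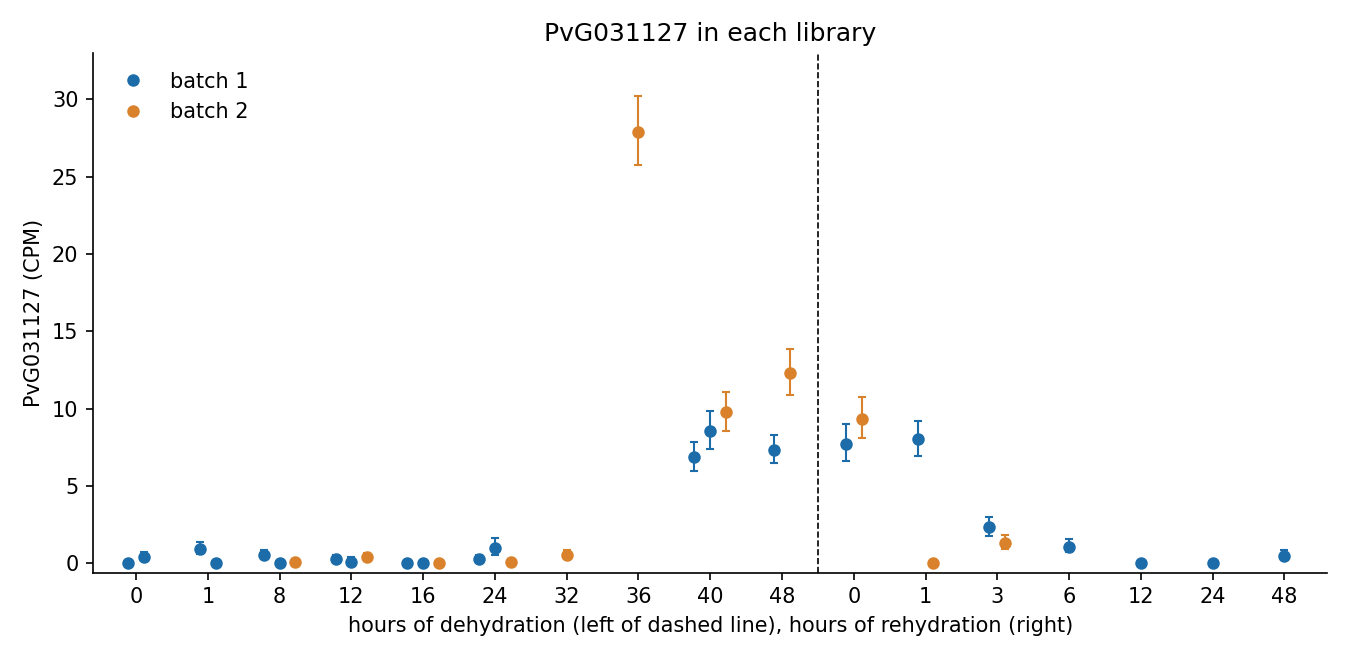
CPM of PvG031127 in each of the 33 libraries by hours of dehydration and rehydration, with exact 95% binomial intervals and colours for the batches. The single library at 36 h of dehydration stands at 27.9 CPM, above the 7 late drying libraries (6.86 to 12.31 CPM), and replicate 2 at 1 h of rehydration, the library that stood apart, has no count.

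The libraries that the criteria did not use placed the rise between 32 and 36 h of dehydration and the fall after 1 h of rehydration. The 32 h library held 13 counts, or 0.516 CPM with an exact 95% binomial interval of 0.275 to 0.882. The 36 h library held 600 counts, or 27.9 CPM with an interval of 25.7 to 30.2. Both were of batch 2 and were single libraries, so this step has no replicate check. With TMM scaling, the trimmed mean scaling of edgeR, the 36 h level was 28.0 CPM against 11.0 to 16.2 CPM in late drying. At 1 h of rehydration replicate 1 held 196 counts, 8.02 CPM, which lay within the range of the late drying libraries, while replicate 2, the library that stood apart, held 0. In late recovery no read was counted at 12 or 24 h of rehydration, which allows up to 0.117 and 0.124 CPM, and at 48 h there were 10 counts, 0.468 CPM with an interval of 0.224 to 0.861.

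At 1 h of dehydration the replicates held 22 and 0 counts, or 0.909 and 0 CPM, the same range as in early drying. Ordered by mean CPM over the 17 times, 36 h of dehydration came first, followed by 48 h of dehydration (9.83 ± 3.51 CPM, SD, n = 2), 0 h of rehydration (8.54 ± 1.13 CPM, SD, n = 2) and 40 h of dehydration (8.39 ± 1.46 CPM, SD, n = 3). The libraries of these last 3 times overlapped. In CPM their batch 2 libraries (9.77, 12.31 and 9.34) all lay above their batch 1 libraries (6.86, 8.55, 7.34 and 7.74). With TMM-scaled CPM the batches overlapped, at 11.2 to 16.2 in batch 2 and 11.0 to 13.5 in batch 1. Each SD with n = 2 is between 1 library of each batch, and the part of the batch was not tested. The fifth was 1 h of rehydration, with the 2 values given above, the sixth 3 h of rehydration (1.84 ± 0.705 CPM, SD, n = 2) and the seventh 6 h of rehydration. Every library of the other 10 times held less than 1 CPM, and their order has little meaning at 0 to 22 counts per library.

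The rise was tested on libraries outside the criteria by setting 36 h of dehydration and 1 h of rehydration against 1 and 32 h of dehydration, with 2 and 3 libraries and both batches on each side. Pooled over the libraries of each side, PvG031127 had 17.3 CPM in the late libraries and 0.450 CPM in the earlier ones, 38.5 times as much (95% counting interval 27.4 to 55.7), and the sides did not overlap. The fitted log2 fold change was 5.33 with an approximate standard error of 1.22 and passed the threshold (edgeR's quasi-likelihood F-test, Benjamini-Hochberg adjusted p over 17789 genes = 0.00352). All standard errors given for edgeR were derived from the F statistic and are approximate. In this comparison 10.7% of all tested genes were called higher, and 10.2% lower, so a call was common. Within batch 1 the values were 8.02 CPM at 1 h of rehydration against 0.909 and 0 CPM at 1 h of dehydration, and within batch 2 they were 27.9 against 0.516 CPM. The call was lost in batch 1 alone (edgeR adjusted p = 0.0872), with all 33 libraries in the fit (adjusted p = 0.0624) and in a fit of the compared libraries only (adjusted p = 0.0995), where the fitted value was 5.32 and none of 14608 genes was called. Without replicate 1 at 1 h of dehydration, which held the 22 counts, the fitted value was 8.50.

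The fall was tested in the same way, with 12, 24 and 48 h of rehydration against 36 h of dehydration and 1 h of rehydration. PvG031127 was lower in all 3 late recovery libraries, with 0.140 CPM pooled over them against 17.3 CPM. That is a 124-fold difference with a 95% counting interval of 66.8 to 259. It passed the threshold (edgeR's quasi-likelihood F-test, Benjamini-Hochberg adjusted p = 4.94e-05), where 19.4% of all tested genes were called lower. The fitted log2 fold change of -9.96 (standard error 1.55) rests on 2 libraries without a count and depends on the prior count of the fit. With the times of each side pooled into 1 group it was -7.54, and this change also passed. Within batch 1, which leaves 1 h of rehydration as the only late library, the values were 8.02 CPM against 0, 0 and 0.468 CPM. The pooled difference there was 57.2-fold (95% counting interval 30.4 to 121). That value lies below the interval of 66.8 to 259, which covers counting error only.

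The other 3 comparisons did not pass, and only the first of them lay outside the criteria. The last 2 compared libraries within late drying and within early drying, which had chosen the gene. The criteria used the mean of each of these sets and not the differences within it, and required a level near that of 0 h in early drying. Late recovery had 0.140 CPM against 0.419 CPM at 1 h of dehydration, pooled over 3 and 2 libraries that overlapped (edgeR's quasi-likelihood F-test, fitted log2 fold change -4.25, standard error 1.74, adjusted p = 0.122). In that comparison 3.51% of tested genes were called higher and 9.08% lower. DESeq2 called PvG031127 lower there (adjusted p = 0.0269), as did edgeR without replicate 2 at 1 h of dehydration (adjusted p = 0.0340), and without replicate 1 at 1 h the fitted value turned to 2.08 (adjusted p = 1). The sides held 10 and 22 counts in all, each from a single library. Between 0 h of rehydration and 40 and 48 h of dehydration the fitted log2 fold change was 0.11 with a standard error of 0.887 (edgeR adjusted p = 1), and the pooled ratio was 0.981 (95% counting interval 0.870 to 1.104). For 24 h against 8 h of dehydration the fitted log2 fold change was 0.99 with a standard error of 1.12 (edgeR adjusted p = 1), on 27 counts against 16, in a comparison where 0.427% of tested genes were called higher and 0.585% lower.

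PvG031199, the gene model whose intron holds PvG031127, shared its late rise and its fall on rewetting at a much higher level. Unlike PvG031127, which was chosen to stay near its 0 h level, PvG031199 also rose in early drying. It stood at 27.2 and 32.0 CPM at 0 h, between 41.0 and 85.1 CPM in early drying, between 163 and 286 CPM in late drying and between 96.6 and 122 CPM in early rewetting. In batch 2 it went from 40.12 CPM at 32 h to 369 CPM at 36 h of dehydration. Outside the criteria's libraries it was higher in the late libraries (edgeR's quasi-likelihood F-test, log2 fold change 3.01, standard error 0.304, adjusted p = 1.90e-07) and lower in late recovery (log2 fold change -4.87, standard error 0.310, adjusted p = 5.35e-11). The first of these calls was lost in a fit of the compared libraries only (edgeR adjusted p = 0.0555), and the second change was -3.68, still a call, without the library at 24 h of rehydration. It did not meet the criteria itself, since its early drying level lay 1.08 above 0 h and its level in early rewetting fell by 1.15. Per kilobase of exon (RPKM), the median over the late drying libraries was 1.02 for PvG031127 and 30.1 for PvG031199.

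The share of PvG031127 relative to PvG031199 is given library by library, and where it uses libraries of the criteria its higher late values follow in part from the choice of the gene. For every 100 counts of PvG031199 there were 0 and 1.31 counts of PvG031127 at 0 h of dehydration and between 0 and 1.82 in early drying. At 1 h of dehydration, outside the criteria, it was 2.22 in replicate 1 (exact 95% binomial interval 1.40 to 3.35) and 0 in replicate 2. In late drying there were between 2.40 and 6.00, and the interval of the lowest of these, 2.10 to 2.73, overlapped that of 1 h replicate 1. The share was 1.29 at 32 h (exact 95% binomial interval 0.686 to 2.19) and 7.56 at 36 h (6.99 to 8.17). After rewetting it was 3.60 at 1 h (replicate 1), 1.91 and 1.38 at 3 h and 1.07 at 6 h. Replicate 2 at 1 h, the library that stood apart, had 122 counts of PvG031199 and none of PvG031127, which allows up to 2.46. At 12 h of rehydration PvG031199 had 1121 counts and PvG031127 none, which allows a share of up to 0.268. At 24 h PvG031199 had only 78 counts and PvG031127 none, which allows up to 3.85, a value within the late drying range. At 48 h the share was 1.14 (0.549 to 2.09). Within late drying the share differed by batch: the batch 2 libraries had 6.00, 4.37 and 4.69, and the batch 1 libraries 2.40, 3.76, 2.75 and 3.37. The batches did not overlap, and the part of the batch in the share was not tested.

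**Figure D2:**
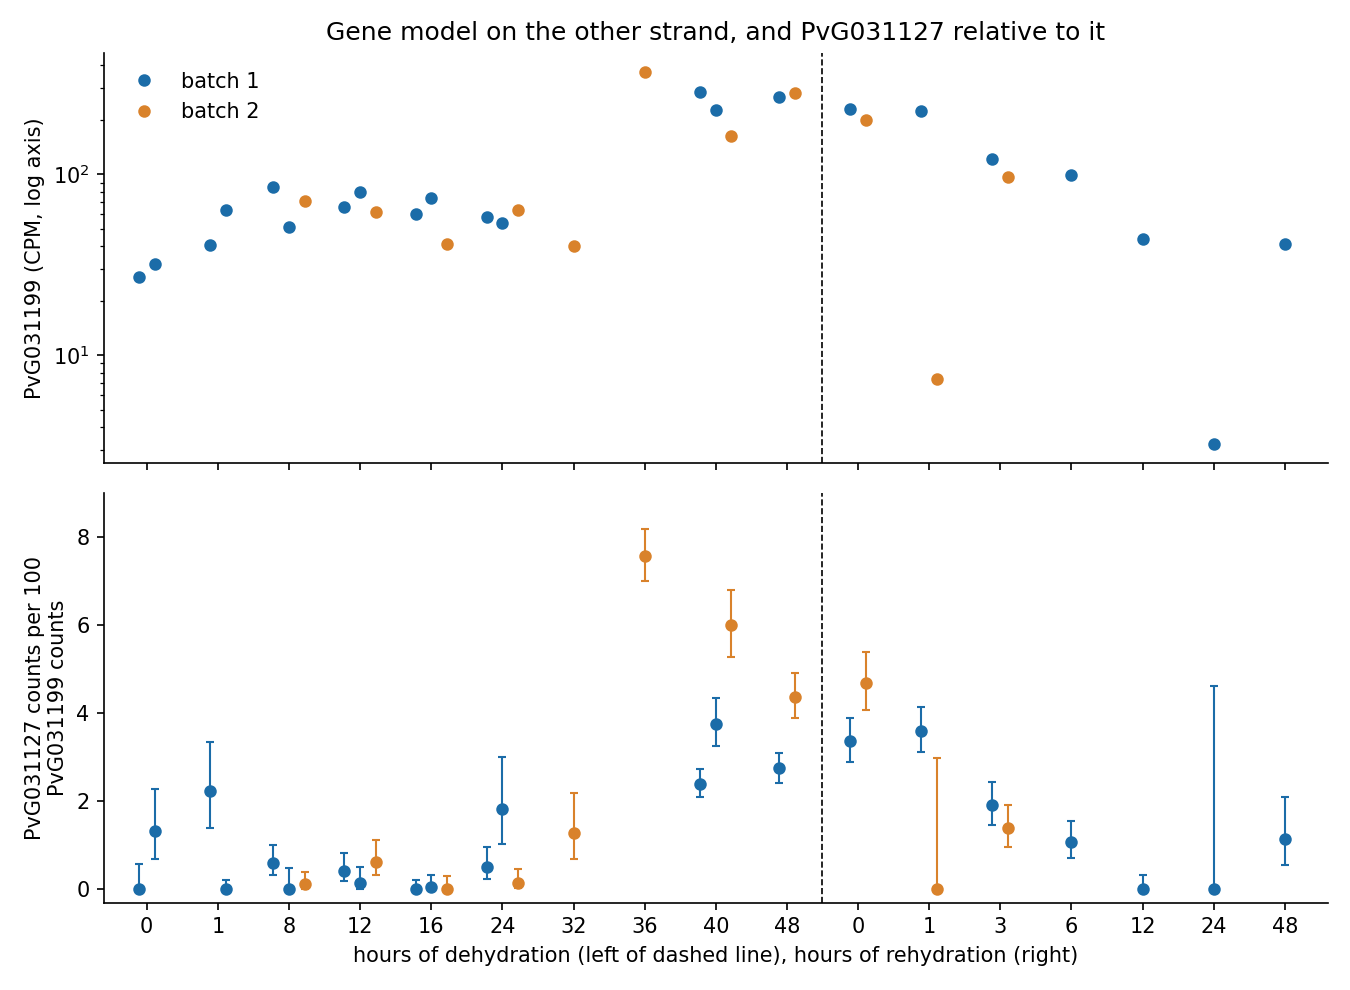
Upper panel, CPM of PvG031199 on a log axis in each library; lower panel, counts of PvG031127 per 100 counts of PvG031199 with exact 95% binomial intervals, both by hours of dehydration and rehydration and coloured by batch. The share is highest at 36 h of dehydration, at 7.56, and lies between 2.40 and 6.00 in the 7 late drying libraries.

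As the only one of the 84 late induced genes past the last limit, PvG031127 had the largest fall on rewetting by the way it was chosen. The genes just outside the limit fell by 1.38, 1.32 and 1.28 on the log2 scale. These lay on the plus strands of scaffold 86 (39334 to 72094), scaffold 77887 (474034 to 482190) and scaffold 29319 (1 to 1609). The other 83 genes had a median difference of -0.59, with a range from -1.38 to 4.404. For 11 of them it was -1 or less, and 14 were higher in early rewetting than in late drying. Over all genes outside the 5 scaffolds, 6 met the criteria for the late rise and for the fall, and 5 of these were set aside for a change in early drying, the nearest by 0.78 against the limit of 0.75.

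**Figure D3:**
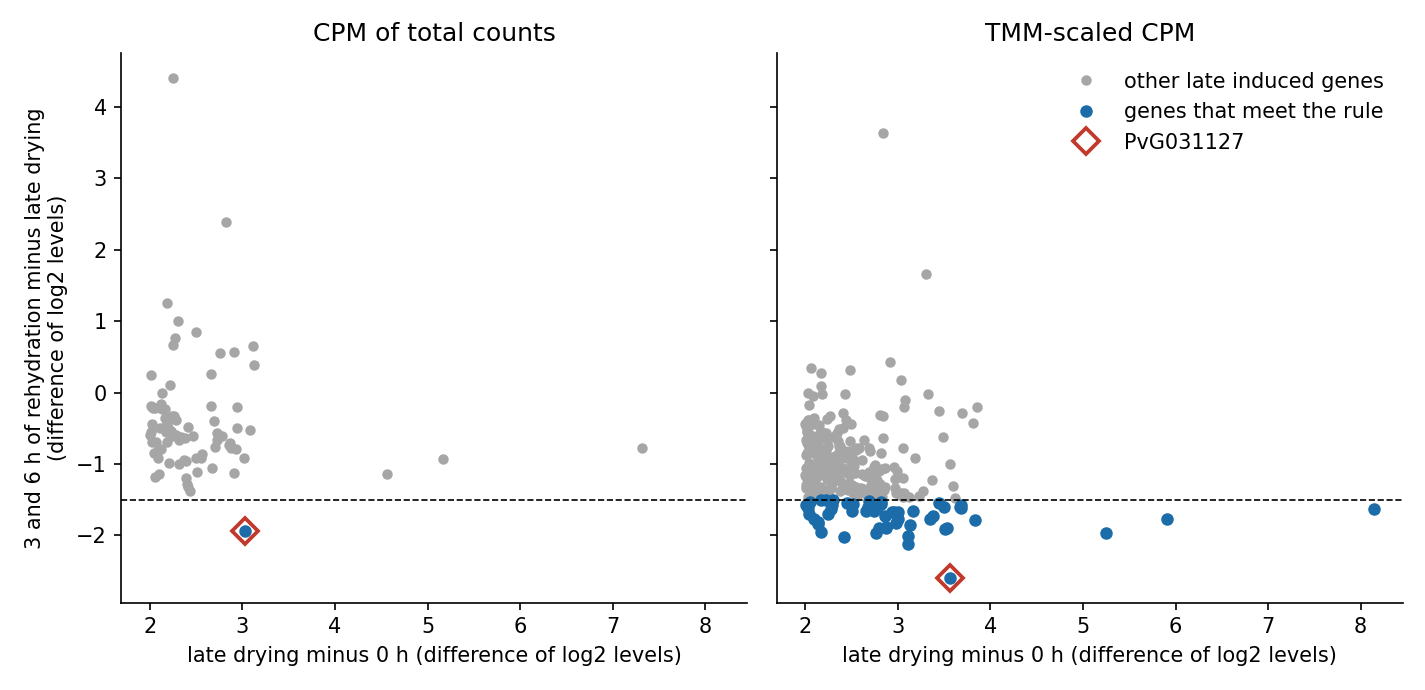
Each point is a late induced gene, by its level in late drying minus 0 h (x axis) and its level at 3 and 6 h of rehydration minus late drying (y axis), as differences of log2(mean CPM + 1), with CPM of total counts on the left and TMM-scaled CPM on the right. The dashed line is the limit of -1.5, below which 1 gene lies on the left and 53 genes on the right. As the only gene past the limit on the left, PvG031127 is the lowest there by choice.

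How many genes were lost soon after rewetting depended on the scaling between libraries. TMM gave factors between 0.543 and 0.869 in late drying and between 1.11 and 1.34 in early rewetting, so that falls on rewetting are larger with it. With TMM-scaled CPM 287 genes were late induced and 53 met all criteria, PvG031127 among them with the largest fall. Their differences on rewetting, on the log2 scale, had a median of -1.67 and a lowest value of -2.59 with the scaling, and lay between -1.93 and -0.64 without it, and 31 of the 53 were late induced without it as well. Adding 0.5 instead of 1 to the mean CPM gave 6 genes.

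The 53 genes had a median of 32.2 CPM in late drying, with a range from 2.35 to 1117 CPM, and lay on 41 scaffolds with at most 3 on any of them. In libraries outside the criteria their median difference from 0 h, as log2(TMM-scaled CPM + 1), was 0.49 at 32 h of dehydration, 3.16 at 36 h, 2.73 at 1 h of rehydration (replicate 1) and 0.17, -0.25 and 0.00 at 12, 24 and 48 h. For the 83 other late induced genes these medians were 0.47, 3.13, 3.08, 0.65, -0.05 and -0.02. The lists are not separate, since 30 of the 53 genes are also among the 83. Of the 53 genes, 51 were called higher in the late libraries by edgeR and 82 of the 83, where 10.7% of all tested genes were. In late recovery 51 and 81 were called lower, where 19.4% of all tested genes were. Both lists were chosen for a late rise at neighbouring times, and the 53 also for a fall. These counts therefore follow in part from the choice of the genes. The median fitted log2 fold change in late recovery was -3.56 for the 53, -3.48 for the 83 and 0.04 over all tested genes.

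**Figure D4:**
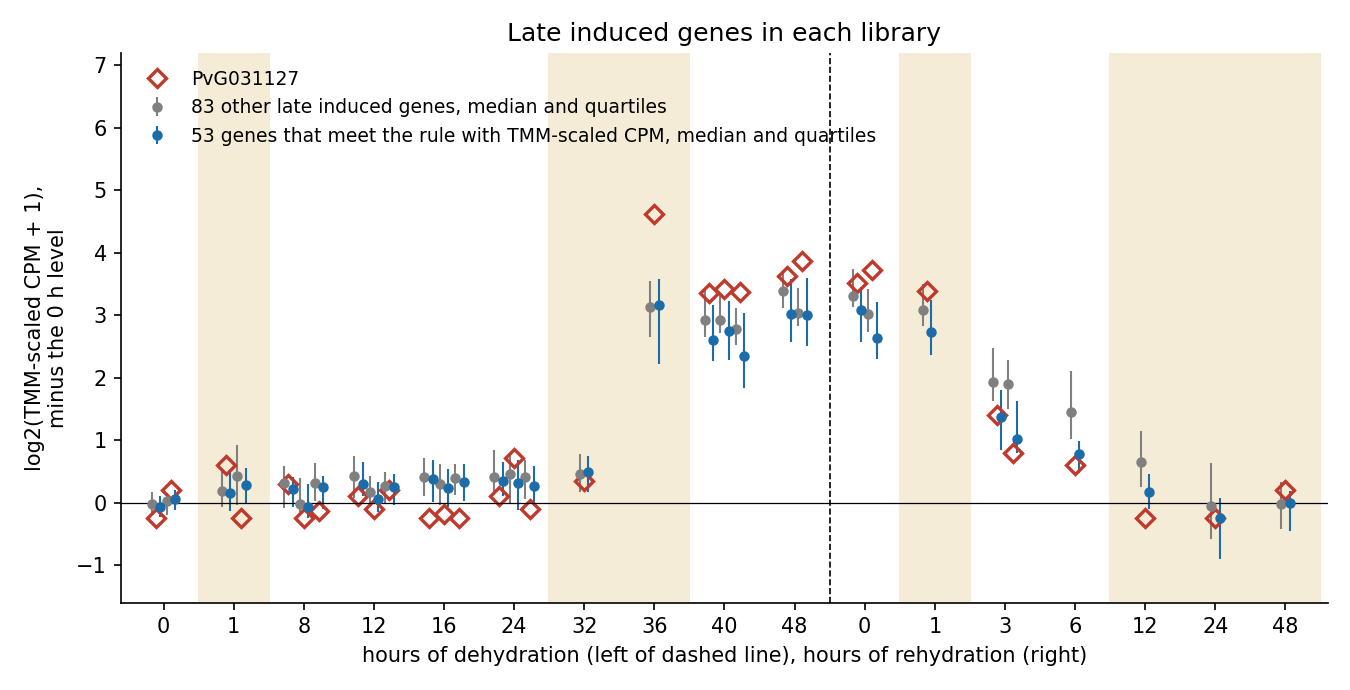
Difference from the 0 h level, in log2(TMM-scaled CPM + 1), in 32 libraries by hours of dehydration and rehydration, for PvG031127 (diamonds) and as median and quartiles for the 53 genes that meet the criteria with TMM scaling and for the 83 other late induced genes; shaded times were not used by the criteria. PvG031127 stands above both medians at 36 h, and all 3 lie near 0 at 24 and 48 h of rehydration.

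The placement of PvG031127 was not particular to it. A position wholly inside an intron of a gene on the opposite strand was found for 7.85% of the 17789 tested genes, for 12 (14.5%) of the 83 other late induced genes and for 7 (13.2%) of the 53 genes. Its span of 8349 bases compares with a median of 1824 over tested genes and 3093 over the other late induced genes. A transcript model with a single exon was present for 22.3% of tested genes and 22.9% of the other late induced genes.

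The gene most like PvG031127 over the 32 libraries, by Pearson's r of log2(CPM + 1), was on the minus strand of scaffold 9230 (35394 to 36615), with r = 0.967. The second was the gene on scaffold 77887 (474034 to 482190) that also had the third largest fall, with r = 0.965. These were looked for after the values of PvG031127 had been seen, and r is a description over libraries that share times and batches. The libraries of the criteria are among the 32, so r follows in part from the choice of PvG031127. On the same CPM of total counts, the median r over the other tested genes was -0.34. Both were near absent at 0 h, with 0.0175 and 0.0386 CPM. They had 0.516 and 0 CPM at 32 h of dehydration and 9.63 and 8.65 CPM at 36 h. PvG031199 had r = 0.812 and ranked 254 of 17788 genes.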

How the data were processed

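The authors deposited whole-number counts of reads per gene for 33 libraries and gene models with SAJR in their source column, and TopHat2 is named in the submitters' processing notes. Its version, the counting settings, the use of strand and the build are not given in the sources used here. Samples were grouped by title. CPM was count over the library's total count scaled per 1e6. PvG031127 was found by the stated criteria. The 17789 genes that reached 1 CPM in 2 or more of 32 libraries entered the quasi-likelihood F-test of edgeR 4.0.16 (in R 4.3.3 with limma 3.58.1), fitted robustly after TMM scaling with terms for each time and for batch, and p-values were adjusted by Benjamini-Hochberg and called under 0.05. In all, 5 contrasts were fitted, and times with 1 library are assumed to vary like the replicated ones. The standard errors given for edgeR are the absolute log2 fold change divided by the square root of F. The fit was tested on simulated counts. Few genes changed in these, so changes as widespread as those called here were not simulated. Alternatives were DESeq2 1.42.0, other scalings, filters, library sets, covariates and groupings. In each contrast the libraries of the compared groups were also left out in turn, and for the criteria the libraries that these used. The other libraries of a fit were not left out in this way.

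Members, lists and tests were chosen with earlier results of these data known. IDs were to be named for the largest rises and falls among members and positions for the most abundant ones, which with 1 member came to the same gene. PvG031199 was named because it holds that gene, after the annotation had been read. No sequence of PvG031127 was used here.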

Additional observations from a re-analysis of the deposited data

How the results depend on the processing

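The number of genes that met the criteria was 53 with TMM-scaled CPM, 6 with 0.5 added to the mean CPM, 2 with the mean of log2(CPM + 1), 1 in batch 1 alone and 0 with limits of 0.5, 2.5 and -2. With each library of the criteria left out in turn it lay between 1 and 4. It was 4 without replicate 1 at 3 h of rehydration, and 2 without replicate 2 at 3 h of rehydration, 12 h replicate 1, 24 h replicate 1 or 24 h replicate 3 of dehydration. PvG031127 was among them in every setting that gave a gene. Its rise had a log2 fold change of 4.84 with all 33 libraries, 4.86 in batch 1 alone and 5.32 with the compared libraries only, without a call in these 3, and kept its call in the other 14 of 17 alternatives. Leaving out 1 library gave 4.49 to 8.50. The fall kept its call in all 16 alternatives, between -12.04 and -7.54, and between -12.04 and -8.90 without 1 library. Late recovery against 1 h of dehydration gave -4.17 with DESeq2, with a call, and -6.34 to 2.08 without 1 library. The comparison of 0 h of rehydration with late drying turned to -0.078 with total counts alone and lay between -0.29 and 0.43 without 1 library, below 0 without 48 h replicate 1 or 0 h replicate 2. For 24 h against 8 h the range without 1 library was -0.035 to 2.97, turning to -0.035 without 24 h replicate 3. The causes were not tested.

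With the replicate block, the number in the title in place of batch, the rise was 5.27 and the fall -9.95, and no call of PvG031127 changed. Deviations from the time means correlated weakly between same-numbered libraries, above 0.1 in 5 of 10 pairs of number 1 and in 2 of 10 of number 3. The r lay between 0.032 and 0.149 for number 1 and between 0.026 and 0.135 for number 3. For libraries without a number it lay between -0.089 and 0.082. Whether same-numbered libraries are paired was not tested. Over all genes, 1906 were higher and 1817 lower in the late libraries, against 1216 and 3043 with total counts alone, which moved the median of all genes from -0.11 to -0.48, and 683 and 745 with all 33 libraries. In late recovery 2821 were higher and 3446 lower, against 5404 and 1919 with total counts alone. Between 0 h of rehydration and late drying edgeR called 0 genes, with 858 at an unadjusted p under 0.05, DESeq2 called 4 higher and 7 lower, and without 48 h replicate 1 edgeR called 227 higher and 24 lower. PvG031127 did not pass the count filter in fits of the compared libraries only for 24 h against 8 h and for late recovery against 1 h, and late recovery against the late libraries left no residual degrees of freedom there.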

Other observations

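Around PvG031127 on scaffold 77887 the gene models moved in different directions. On the minus strand at 704035 to 706230 the mean was 177 CPM at 0 h, 86.0 CPM in early drying, 45.1 CPM in late drying and 43.5 CPM in early rewetting. On the minus strand at 693796 to 702319 the means were 152, 222, 224 and 240 CPM. The models on the plus strand at 749392 to 765995 and 764676 to 765240 stayed at or below 0.124 CPM in these means. PvG031199 had 78 counts, 3.22 CPM, in the single library at 24 h of rehydration, against 43.7 CPM at 12 h and 41.0 CPM at 48 h. Its fall in late recovery against 1 h of dehydration (edgeR's quasi-likelihood F-test, log2 fold change -1.82, adjusted p = 9.18e-05) did not pass without that library (log2 fold change -0.63, adjusted p = 0.254). Nor did it pass with all 33 libraries (adjusted p = 0.169), with the compared libraries only (adjusted p = 0.106) or with the times of each side pooled (log2 fold change -1.15, adjusted p = 0.269).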
